A study of Mus musculus with 6 samples.

Results

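The CCN family is a set of secreted matricellular proteins, which signal from the extracellular matrix and do not build it. Its genes were taken from the deposited table by their older symbols Cyr61 (now Ccn1), Ctgf (Ccn2), Nov (Ccn3), Wisp1 (Ccn4) and Wisp2 (Ccn5). All 5 were found among the 16854 genes of the table and all 5 passed the filter on low values, a normalised count of at least 10 in at least 3 libraries. Wisp3 (Ccn6) is not analysed here.

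RNA came from C2C12, a mouse myoblast line that fuses into myotubes when serum is reduced, on day 3 in 2% horse serum. The 3 knockdown libraries came from cells with a stably expressed short hairpin RNA against Adamtsl2, and the 3 control libraries from cells with a scrambled hairpin. Adamtsl2 encodes a secreted glycoprotein that binds fibrillin microfibrils, and the title of the series places it in Wnt signalling during myogenesis. Whether the stable lines were clones or pools, and whether the libraries were separate cultures, is not given in the sources used here, so p-values measure the spread between these libraries, which may be technical. Effects of the depletion and other effects of the hairpin or of making the stable lines cannot be told apart. In bulk RNA, fewer cells that make a transcript and less transcript per cell also cannot be told apart.

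CCN proteins share a modular plan: an N-terminal module like that of the insulin-like growth factor binding proteins, a von Willebrand factor type C module, a thrombospondin repeat and, except in Wisp2, a C-terminal cystine knot. They bind integrins, proteoglycans, growth factors and, for Nov, the Notch1 receptor. Cyr61 and Ctgf are textbook target genes of the YAP and TAZ coactivators and their TEAD partners, and Ctgf is also a widely used readout of TGF-beta. Wisp1 and Wisp2 were named as Wnt-1 induced genes. Nov has been described as an inhibitor of myoblast differentiation.

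Adamtsl2 stood at normalised counts of 23.2, 21.7 and 7.83 in knockdown libraries 1 to 3, against 1325, 1266 and 1307 in control libraries 1 to 3 (log2 change -6.26 ± 0.41 SE, adjusted p = 1.1e-04). Unless another tool or source is named, adjusted p-values come from limma with Benjamini-Hochberg adjustment over the 16245 genes tested, and the threshold was 0.05. Recovered reads totalled 37346439 to 50329438 per library. The third knockdown library stood apart: its log2 values correlated with those of the first and second at 0.917 and 0.920 across genes, against 0.996 between the first and second and 0.993 to 0.995 among controls. All 12 skeletal muscle markers were lower in the knockdown, where 23.5% of all genes tested were lower. These markers had summed normalised counts of 8826 to 10206 in knockdown and 1039599 to 1087795 in control libraries. Among them, the log2 change was -6.36 for the myogenic factor gene Myog and -9.96 for the muscle creatine kinase gene Ckm. Their part in the CCN results was not tested.

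Of other cell types, 4 of 9 fibroblast and mesenchymal progenitor markers tested were higher and 1 lower. Over all genes tested 21.7% were higher and 23.5% lower, which is the background for each marker count here. The fibroblast and progenitor markers summed to 351974 to 492311 in knockdown and 466765 to 493935 in control libraries. Col3a1, a collagen gene that did not pass, made up most of these sums in every library but knockdown library 3. There it stood at 145200, beside 145067 for Dcn. The markers that rose, named after their values were seen, were Dcn, Clec3b (16853 to 17575 in knockdown and 4.36 to 8.84 in control libraries), Ly6a (15830.0 to 24681 in knockdown and 72.2 to 84.6 in control libraries) and Cd34 (17936 to 25868 in knockdown and 242 to 295 in control libraries). The marker that was lower is not named here. Groups did not overlap for 4 of the 9 on the higher side and 3 on the lower side (30.0% and 32.7% of all genes tested). The defining marker Pdgfra did not pass (log2 change 0.47 ± 0.36, adjusted p = 0.32), and was at 0.89 without the third knockdown library (adjusted p = 2.9e-06). Bone and cartilage markers were higher in 3 of 5 tested, or 1 of 5 without control library 1 or at an adjusted p of 0.01. They summed to 4524 to 9112 in knockdown and 2605 to 3010 in control libraries. Sp7, Bglap, Ibsp and Acan were also listed but were absent from the deposited values. Runx2 was higher by 0.84 ± 0.19 (adjusted p = 0.012, or 0.054 and 0.055 without control library 1 or 3). Adipocyte markers were higher in 2 of 3 tested, with sums of 8853 to 16092 in knockdown and 3600 to 3701 in control libraries. Of the 8 adipocyte markers listed, Adipoq, Plin1, Fabp4, Lep and Cidec were absent from the deposited values. Smooth muscle markers were lower in 3 of 6, with sums of 95267 to 98096 in knockdown and 239705 to 274132 in control libraries. Myh11, its defining marker, stayed between 26.8 and 41.4 in knockdown and between 9.81 and 22.7 in control libraries. Of 2 endothelial markers tested 1 was higher and 1 lower, and of 2 leukocyte markers 1 was lower. These summed to at most 90.5 in any knockdown and 97.9 in any control library. The part of these markers in the CCN results was not tested.

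Knockdown cells carried a different CCN repertoire from control cells. Nov and Wisp2 rose strongly, Ctgf rose moderately and Wisp1 fell, whereas Cyr61 did not pass the threshold. Thus 3 members were higher and 1 lower, in a comparison where 45.2% of all genes tested passed, 21.7% higher and 23.5% lower. At that background, the number of members that passed is no result in itself. The same 4 members had groups that did not overlap, which held for 62.6% of all genes tested (30.0% higher and 32.7% lower). Without the third knockdown library, Cyr61 passed as well, so that 4 members were higher and 1 lower where 78.5% of all genes tested passed, 38.6% higher and 39.9% lower.

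**Figure D1:**
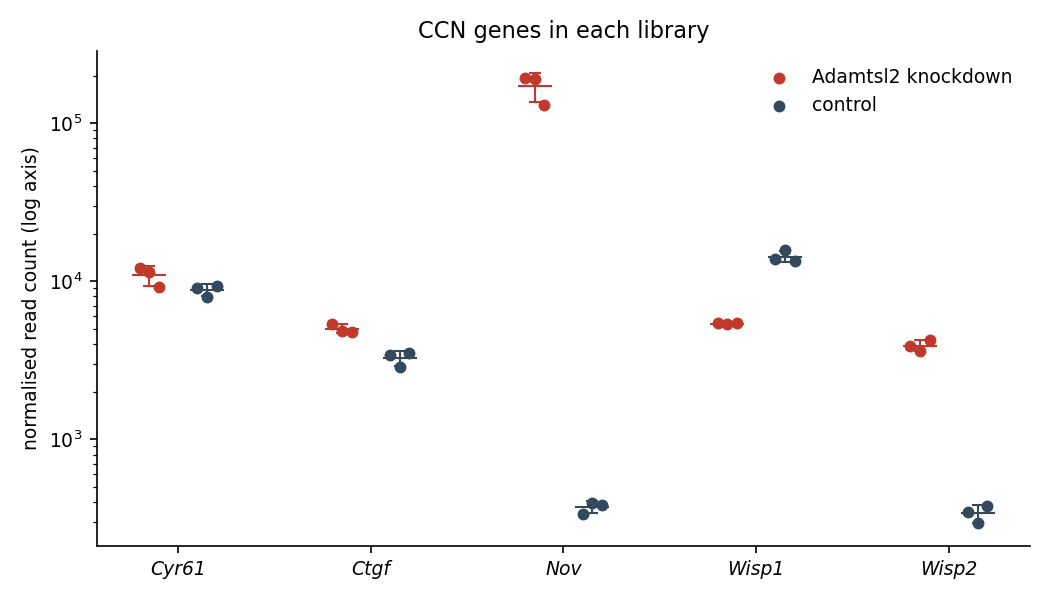
Normalised read counts (log axis) of the 5 CCN genes in each library; points are libraries, the horizontal marks and bars are the mean ± SD of 3 libraries. Nov lies at 129980 or more in knockdown libraries and between 335 and 395 in control libraries, Wisp1 is the member that is lower in the knockdown, and the Cyr61 groups touch.

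Nov (ENSMUSG00000037362, protein-coding, on the plus strand of chromosome 15 from 54745702 to 54754039 in GRCm38) had normalised counts of 192897, 190444 and 129980 in knockdown libraries 1 to 3, against 335, 395 and 384 in control libraries 1 to 3. The groups were far apart, and the lowest knockdown value was 329 times the highest control value. The mean was 171107 ± 35638 in knockdown and 371 ± 32.3 in control cells (SD, n = 3 each), a 461-fold difference. On the log2 scale Nov was higher by 8.83 ± 0.19 (SE, adjusted p = 3.8e-06). The exact permutation p, two-sided, was 0.1, below which 3 libraries against 3 cannot go.

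By normalised count, Nov ranked 10, 11 and 34 among all 16854 genes in knockdown libraries 1 to 3, against 9630, 9358 and 9391 in control libraries 1 to 3. It took 0.471, 0.468 and 0.291% of all reads in the knockdown libraries. In control libraries it was counted with 307, 313 and 404 reads, so its low level there did not rest on a handful of reads. Among the genes tested, 14 had a higher log2 change than Nov, which ranked 15. The third knockdown library was lower than the first and second by 0.56 on the log2 scale, a ratio of 0.678. The median absolute difference of that kind was 0.73 over all genes tested. Without the third library the log2 change of Nov was 9.01.

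Wisp2 (ENSMUSG00000027656, chromosome 2, 163820861 to 163833146, plus strand), the member without the cystine knot, had normalised counts of 3899, 3593 and 4228 in knockdown libraries 1 to 3. Its control values were 345, 294 and 377. The groups did not overlap, and the lowest knockdown value was 9.53 times the highest control value. Wisp2 averaged 3907 ± 317 in knockdown and 339 ± 41.8 in control cells (SD, n = 3 each), an 11.5-fold difference with a log2 change of 3.53 ± 0.14 and an adjusted p of 2.1e-05. Only 3.08% of genes tested had a higher log2 change. Adamtsl2, which fell, lies on the same chromosome but far from Wisp2, from 27079379 to 27108981.

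Wisp1 (ENSMUSG00000005124, chromosome 15, 66891320 to 66923201, plus strand) went the other way. Its normalised counts were 5420, 5359 and 5402 in knockdown libraries 1 to 3, against 13905, 15653 and 13392 in control libraries 1 to 3. All knockdown values were lower than any control value, and they spread by 0.581% (coefficient of variation), against 8.28% in control libraries. The mean of 5394 ± 31.3 in knockdown and 14317 ± 1185 in control cells (SD, n = 3 each) gave a 2.65-fold lower level, a log2 change of -1.40 ± 0.12 and an adjusted p of 2.6e-04. Nov and Wisp1 lie on the same chromosome and moved in opposite directions.

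Ctgf (ENSMUSG00000019997, chromosome 10, 24595442 to 24598683, plus strand), which is induced by TGF-beta and linked to fibrosis, had normalised counts of 5384, 4831 and 4788 in knockdown libraries 1 to 3. Its control values were 3388, 2877 and 3506. The groups did not overlap, but the gap was small, with the lowest knockdown value 1.37 times the highest control value. Ctgf averaged 5001 ± 332 in knockdown and 3257 ± 334 in control cells (SD, n = 3 each), a log2 change of 0.62 ± 0.13 with an adjusted p of 0.0094. The noncoding gene Gm15270 overlaps Ctgf on the opposite strand, and with the strand setting not given, reads from the overlap cannot be assigned to either gene. Gm15270 reached at most 138 in any knockdown library, far below Ctgf, with a log2 change of 2.79 ± 0.41. That count cannot show how many reads from the overlap either gene missed. The level of Ctgf per kilobase, used below, carries the same limit.

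Cyr61 (ENSMUSG00000028195, chromosome 3, 145646976 to 145649981, minus strand) is an early growth-response gene that supports adhesion through integrins. Among the 5 members, only Cyr61 had an entry in the RefSeq promoter table (GRCm38.p6). Its 250 bases before the transcription start, chr3:145649986-145650235 on the minus strand, are shown because they hold the letters by which TEAD factors are known to bind DNA. Capitals mark, in order, a TEAD core (CATTCC), a cAMP response element half-site (CGTCA) and a TATA box (TATAAA).
Cyr61: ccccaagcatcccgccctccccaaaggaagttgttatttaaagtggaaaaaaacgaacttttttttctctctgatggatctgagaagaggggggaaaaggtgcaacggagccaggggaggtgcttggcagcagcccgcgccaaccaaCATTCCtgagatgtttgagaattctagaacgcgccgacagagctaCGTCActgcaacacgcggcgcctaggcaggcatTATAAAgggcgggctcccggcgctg
The TEAD core begins 103 bases, the half-site 58 bases and the TATA box 25 bases before the start. Searched on both strands, CATTCC was in 12.6% and CGTCA in 17.8% of the 32851 promoter windows of the same length, and TATAAA, on the gene's strand alone, in 7.59%. A CArG box, the site of serum response factor, was not matched in this window and was in 1.47% of windows. The motifs did not overlap each other, and a match describes the letters, not a bound factor.

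Cyr61 had normalised counts of 12049, 11507 and 9137 in knockdown libraries 1 to 3, against 9097, 7938 and 9383 in control libraries 1 to 3. The groups overlapped, because the third knockdown library lay below the third control library. The mean was 10898 ± 1549 in knockdown and 8806 ± 765 in control cells (SD, n = 3 each), and the log2 change of 0.30 ± 0.16 had a 95% interval of -0.08 to 0.69 and an adjusted p of 0.17. Without the third knockdown library the log2 change was 0.42 (adjusted p = 2.7e-04). With upper quartile scaling it was also 0.42 (adjusted p = 0.037). That scaling moved the median of all genes by 0.12, and relative to the median the change was 0.30 with either scaling. An exact two-sided permutation test gave p = 0.2 for Cyr61 and p = 0.1 for each of the other 4 members. The authors' deposited table likewise held an adjusted p of 0.124 for Cyr61, beside a log2 fold change of 0.31.

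**Figure D2:**
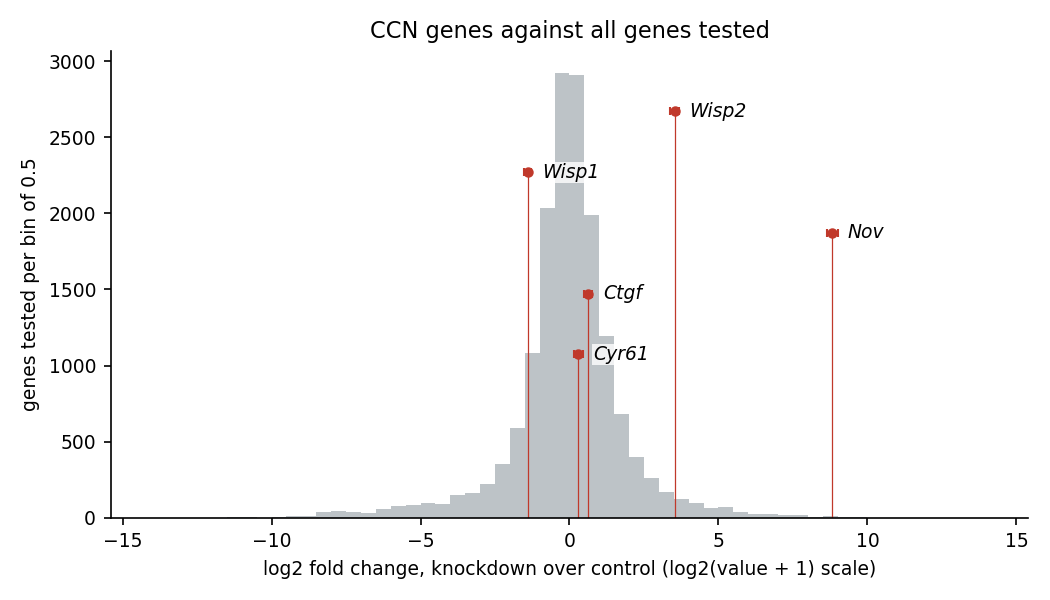
Distribution of the log2 fold change, knockdown over control, of the 16245 genes tested (grey, bins of 0.5), with the CCN genes marked in red (error bars are the SE; the height of a mark has no meaning). Nov at 8.83 and Wisp2 at 3.53 lie in the right tail, whereas Cyr61, Ctgf and Wisp1 lie within the bulk.

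The changes reordered the family. Compared as normalised counts per kilobase of exonic length, the order in all 3 knockdown libraries was Nov, Cyr61, Wisp2, Ctgf and Wisp1. In all 3 control libraries it was Cyr61, Wisp1, Ctgf, Wisp2 and Nov. Per kilobase, Nov stood at 59640.1 ± 12422 in knockdown and 129 ± 11.3 in control cells, and Cyr61 at 5397 ± 767 in knockdown and 4362 ± 379 in control cells (SD, n = 3 each). Wisp2 stood at 2031 ± 165 in knockdown and 176 ± 21.7 in control cells on this scale. Within the knockdown group, the ranges of Wisp2 (1868 to 2197) and Ctgf (1674 to 1882) overlapped. All other neighbours in these orders had ranges that did not overlap within their group.

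**Figure D3:**
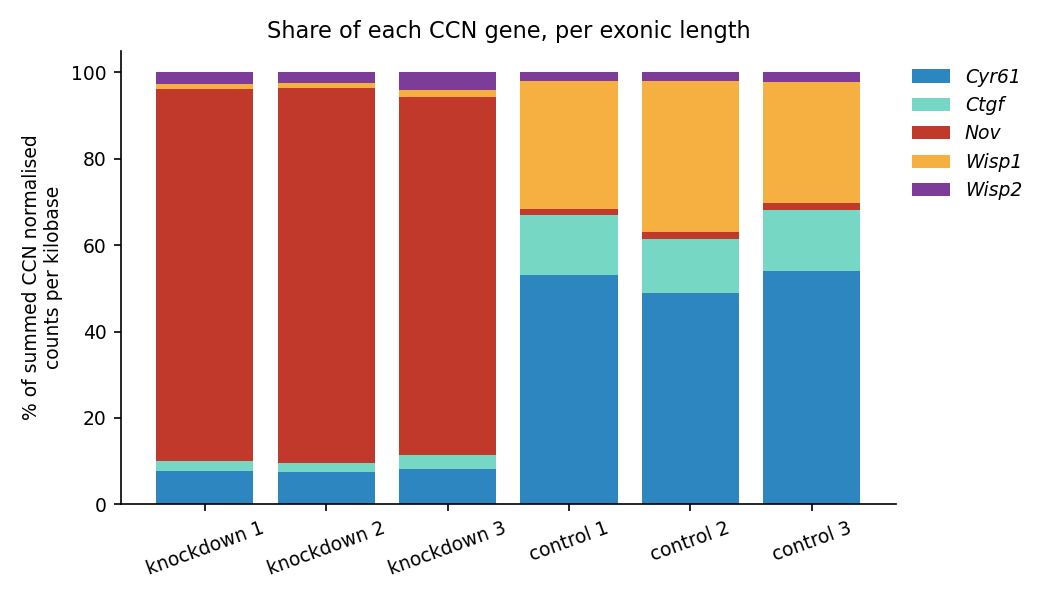
Share of each CCN gene in the summed CCN normalised counts per kilobase, in percent, for each library. Nov takes 82.9 to 86.7% in knockdown and 1.37 to 1.71% in control libraries, where Cyr61 and Wisp1 take most.

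Nov made up 85.2 ± 2.05% of the summed CCN level per kilobase in knockdown and 1.55 ± 0.17% in control cells (SD, n = 3 each). The share of Cyr61 was 7.79 ± 0.437% in knockdown and 52.0 ± 2.72% in control cells, although its own level did not pass the test. Wisp1 took 1.43 ± 0.302% in knockdown and 30.8 ± 3.70% in control cells. The sum of the family was 69785 ± 13110 in knockdown and 8378 ± 299 in control cells. Leaving Nov out, it was 10145 ± 744 in knockdown and 8249 ± 304 in control cells, so the other 4 members together differed far less than the whole family.

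Ratios within a library do not depend on how libraries were scaled. Per kilobase, the ratio of Wisp2 to Wisp1 was 2.08, 1.94 and 2.26 in knockdown libraries 1 to 3, against 0.0718, 0.0544 and 0.0815 in control libraries 1 to 3. The ratio of Nov to Cyr61 was 10.01 to 11.6 in knockdown and 0.0259 to 0.035 in control libraries. The ratio of Ctgf to Cyr61, which share upstream regulators, was 0.315, 0.296 and 0.37 in knockdown libraries and 0.263, 0.256 and 0.264 in control libraries. None of these ratios overlapped between groups, and each exact two-sided permutation test gave p = 0.1, the smallest possible (4 ratios computed, the other being Nov to Ctgf, adjusted p = 0.1 each).

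The members also differed in how the third knockdown library sat among its group. Relative to the mean of the first and second, it differed by 0.0032 for Wisp1, 0.18 for Wisp2, -0.09 for Ctgf, -0.37 for Cyr61 and -0.56 for Nov on the log2 scale. All 5 differences were smaller in size than the median over all genes tested, 0.73.

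**Figure D4:**
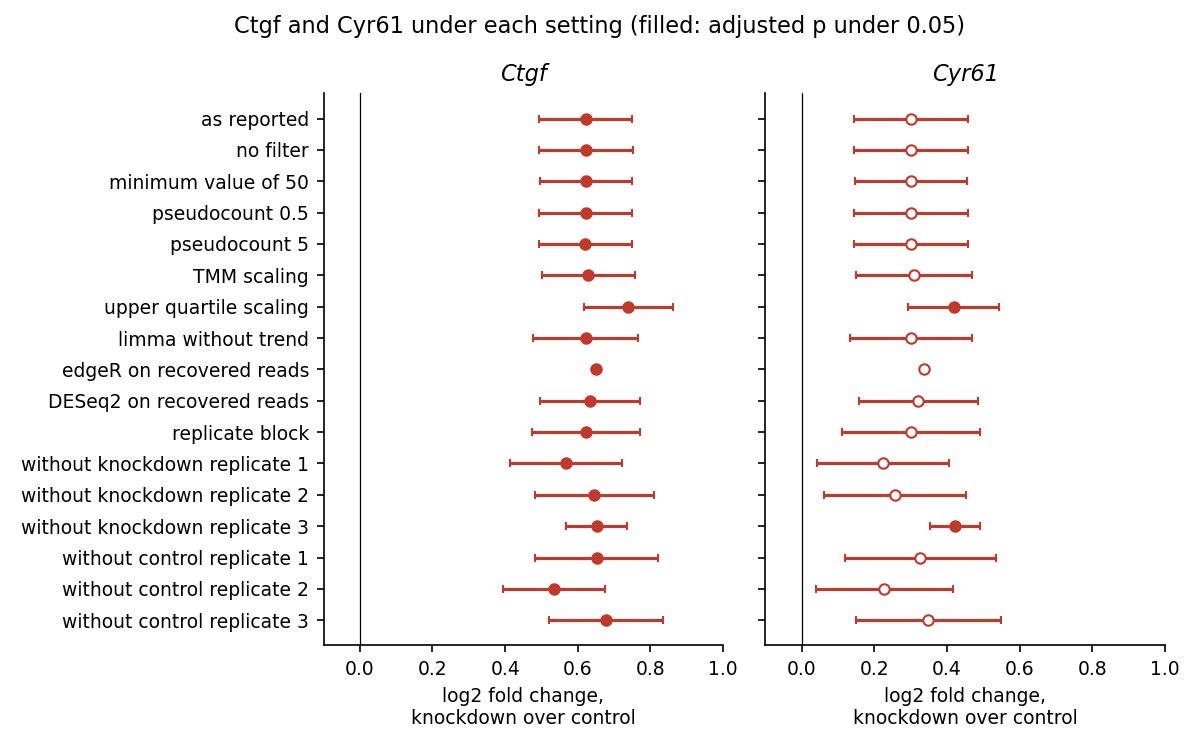
Log2 fold change (knockdown over control) of Ctgf and Cyr61 under each way of processing; bars are the SE, where the test gives one, and filled points passed an adjusted p of 0.05. Ctgf is filled throughout, and Cyr61 is filled with upper quartile scaling and without the third knockdown library.

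Genes with the most similar profile were sought among 11070 candidate genes with a mean of at least 100, by the root mean square difference of log2 values over the 6 libraries after subtracting each gene's control mean. Nearest to Nov were Ndnf, a secreted neurotrophic factor (difference 0.16), Adh1, an alcohol dehydrogenase (0.25), and Fgf10, a fibroblast growth factor (0.34). Ndnf had 253 to 689 reads in knockdown libraries and 0 in every control library, so against a floor of 3 reads in each control library it was at least 136-fold higher. Leaving out the third knockdown library gave at least 162-fold higher. Adh1 stood at 21661 to 23388 in knockdown and 42.8 to 46.7 in control libraries, and Fgf10 at 4168 to 5602 in knockdown and 5.70 to 8.84 in control libraries. All 3 had far fewer normalised counts than Nov in the knockdown.

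Nearest to Wisp2 were Plvap, an endothelial diaphragm protein (difference 0.14), Nipsnap1, a mitochondrial protein (0.14), and Cpe, a carboxypeptidase of secretory granules (0.15), with log2 changes of 3.64, 3.43 and 3.66. Endothelial markers summed to 18.2 to 90.5 in knockdown and 52.3 to 67.5 in control libraries. Nearest to Wisp1 were the DNA methyltransferase Dnmt3a, Zcwpw1 and Pdss1 (differences 0.06 to 0.07), with log2 changes of -1.32, -1.46 and -1.47. Nearest to Ctgf were Irf9, an interferon-signalling factor, the enolase Eno2 and Wdpcp (0.04 to 0.06), each with a log2 change of 0.58 to 0.67. Eno2 lost its call without knockdown library 1 or control library 1 or 2 (adjusted p = 0.054 to 0.061). Among those nearest to Cyr61 were Pmm2 and Polk (0.02 and 0.04), neither of which passed with all libraries and the deposited scaling. Both passed without the third knockdown library, as Cyr61 did, with adjusted p-values of 0.00044 and 0.0032.

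Along the chromosomes, the 3 genes of the table on each side of every member were read off by position after the members' values were seen, 30 in all, of which 8 were higher and 10 lower (60.0%, against 45.2% of all genes tested). Beside Nov, Enpp2, which encodes the lysophospholipase autotaxin and lies 84.9 kb beyond the end of Nov towards higher coordinates, rose to 5430, 5510 and 3779 in knockdown libraries 1 to 3, against 223, 213 and 211 in control libraries 1 to 3 (log2 change 4.48 ± 0.18). Mal2 and Colec10, towards lower coordinates, also passed as higher, but at normalised counts of at most 94.5 in any library. Taf2, on the same side as Enpp2, was lower with a log2 change of -0.96 ± 0.24 (adjusted p = 0.020, and 0.062 to 0.076 with any 1 control library left out). Beside Wisp1, which fell, Ndrg1, a stress-responsive gene separated from it by 6.12 kb, rose by 3.56 ± 0.18. Of the 6 genes beside Wisp1, 2 were higher and 3 lower. Those lower were Tg (-2.21 ± 0.31), Sla (-2.06 ± 0.23, at most 83.9 in any library) and St3gal1 (-1.50 ± 0.37, adjusted p = 0.018). Called neighbours lay in both directions for 4 of the 5 members, and for Wisp2 0 were higher and 3 lower, in a comparison where 21.7% of all genes were higher and 23.5% lower.

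Among the known partners of CCN proteins, 7 of 18 tested were higher and 4 lower (21.7% and 23.5% of all genes tested), with a median log2 change of 0.19 against -0.0013 over all genes tested. Decorin (Dcn), a small proteoglycan of the matrix that is also among the fibroblast markers, rose to 68597, 69622 and 145067 in knockdown libraries 1 to 3, against 4717, 4720 and 4854 in control libraries 1 to 3 (log2 change 4.22 ± 0.31). Bmp4, a growth factor that Ctgf can bind, rose by 5.30 ± 0.32. Notch1, the receptor bound by Nov, stood at 2559, 2247 and 671 in knockdown and at 5828, 5843 and 5134 in control libraries (log2 change -1.83 ± 0.51, adjusted p = 0.029, and 0.082 to 0.093 with any 1 control library left out). The laminin receptor subunit Itga6 fell by 2.34 ± 0.33. With the third knockdown library left out, 11 partners were higher and 5 lower (38.6% and 39.9% of all genes). With any 1 control library left out, 2 partners were lower.

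The 6 integrin subunits of that list, set out after their values were seen because integrins are the main CCN receptors, went different ways. Itgb3 and Itgb5, which pair with the alpha-v chain, were higher, by 1.84 ± 0.28 and 1.08 ± 0.22. Itgb1, the most widely used beta chain, was lower with a log2 change of -1.18 ± 0.30 (adjusted p = 0.021, and 0.072 to 0.074 with any 1 control library left out), and Itga6 was lower too. Itgav and Itga5 did not pass (0.14 ± 0.21 and -0.19 ± 0.20). Itgav was at 0.37 without the third knockdown library (adjusted p = 7.6e-05).

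Upstream of Cyr61 and Ctgf, 7 of 16 TEAD and Hippo pathway genes were lower and 1 was higher (23.5% and 21.7% of all genes), with a median log2 change of -0.58. Tead4, the TEAD factor tied to muscle differentiation, fell to 420, 364 and 140 in knockdown libraries 1 to 3, against 7397, 7458 and 6903 in control libraries 1 to 3 (log2 change -4.70 ± 0.42). Tead2 fell by 1.56 ± 0.19. Wwtr1, which encodes TAZ, had a log2 change of -1.35 ± 0.28 (adjusted p = 0.0098). Tead1 was lower at -0.63 ± 0.18 (adjusted p = 0.031, and 0.057 to 0.11 when knockdown library 2 or any 1 control library was left out). Tead3 (-0.52 ± 0.40) and Yap1 (-0.10 ± 0.29) did not pass, and Yap1 was at 0.23 without the third knockdown library (adjusted p = 0.0096). Among the kinases and their adaptors, Stk3 was higher by 0.93 ± 0.13 and Mob1b fell by 2.10 ± 0.11. When that library was left out, 6 members of this list were higher and 8 lower (38.6% and 39.9% of all genes).

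Other genes in common use as YAP and TAZ readouts moved in both directions. Of 20 tested, 3 were higher and 5 lower (21.7% and 23.5% of all genes), and the median was -0.13, or 0.06 in edgeR and 0.04 in DESeq2. Upper quartile scaling gave 4 higher and 2 lower. F3, the initiator of blood clotting known as tissue factor, rose by 3.73 ± 0.18 and Crim1, a membrane protein with a module of the insulin-like growth factor binding type, by 2.87 ± 0.19. Ankrd1, a muscle ankyrin repeat protein, stood at 2976, 2929 and 8461 in knockdown and 12746, 9983 and 13427 in control libraries (log2 change -1.51 ± 0.44, adjusted p = 0.033). Its call was lost in edgeR (adjusted p = 0.068), with upper quartile scaling (0.060) and when knockdown library 1 or 2 or any 1 control library was left out (0.074 to 0.11). The kinase gene Nuak2 had a log2 change of -1.03 ± 0.32 (adjusted p = 0.042, 0.051 in limma without trend, and 0.065 to 0.12 when knockdown library 2 or any 1 control library was left out). Without the third knockdown library 11 of the 20 were higher and 6 lower, where 38.6% and 39.9% of all genes were. With any other library left out, 2 to 4 passed in either direction.

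**Figure D5:**
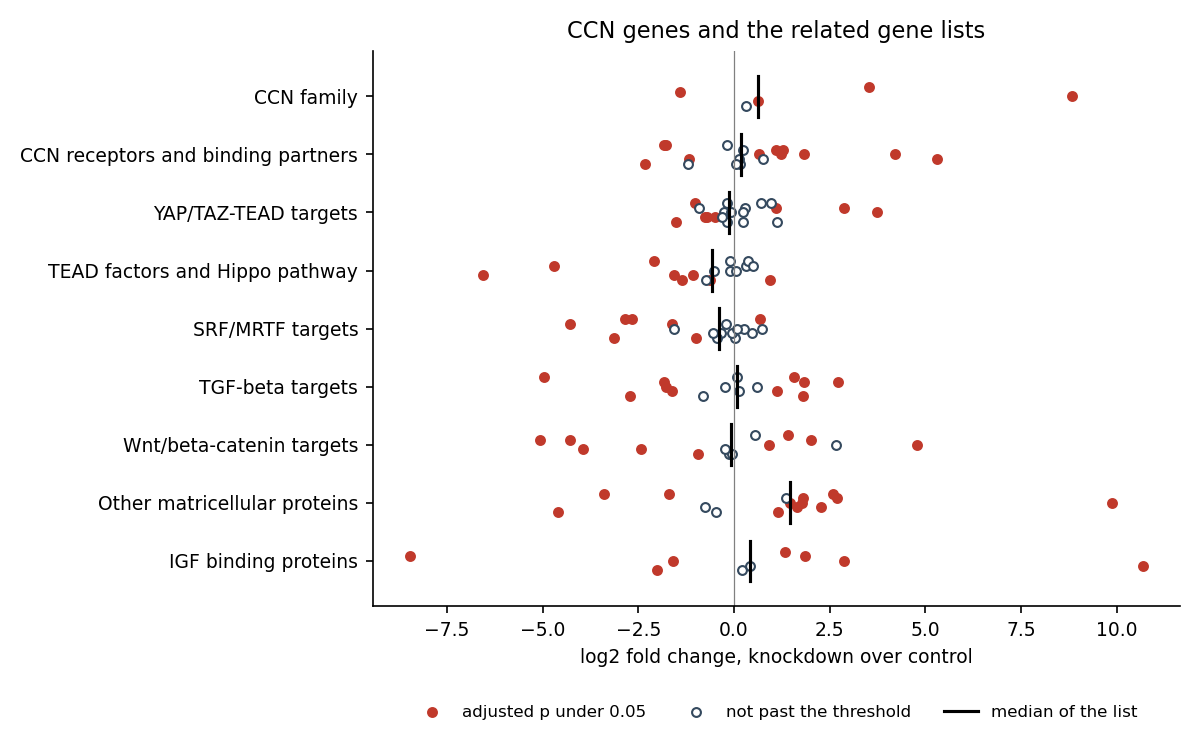
Log2 fold change, knockdown over control, of every tested gene in the CCN family and the related lists; each point is a gene, filled where the adjusted p was under 0.05, and the black line is the median of the list. Every list holds genes on both sides of 0, and the median of the other matricellular proteins is at 1.45.

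Of 18 genes in the list for serum response factor, 6 were lower and 1 higher (23.5% and 21.7% of all genes). That factor also acts on Cyr61 and Ctgf, and the median of the list was -0.40. Besides targets, the list holds Srf itself, which was lower, and its coactivator genes Mkl1 and Mkl2, which did not pass. The regulatory myosin light chain Myl9 fell to 1143, 1090 and 1128 in knockdown libraries 1 to 3, against 21653, 20993 and 23052 in control libraries 1 to 3 (log2 change -4.29 ± 0.10). Calponin (Cnn1) fell by 3.15 ± 0.33, whereas the LIM protein gene Fhl2 was higher by 0.69 ± 0.13. With knockdown library 3 left out, 6 were higher and 9 lower (38.6% and 39.9% of all genes).

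Among TGF-beta readouts, the class to which Ctgf belongs, 5 of 15 were higher and 5 lower (21.7% and 23.5% of all genes), with a median of 0.07. The matricellular gene Postn rose by 1.81 ± 0.23 and the transcription factor gene Snai2 by 2.73 ± 0.19. The collagen gene Col1a1 fell by 4.96 ± 0.31. With knockdown library 3 left out, 7 were higher and 7 lower (38.6% and 39.9% of all genes). The number higher was 3 without knockdown library 1 or 2 or control library 1 or 2.

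A further list joined Wnt and beta-catenin readouts other than Wisp1 and Wisp2 with Dkk genes, not all of which are readouts. In it, 4 of 14 tested were higher and 5 lower (21.7% and 23.5% of all genes). The median was -0.09, which became 0.02 with upper quartile scaling and 0.0065 in edgeR. The secreted Wnt antagonist Dkk2 rose by 4.78 ± 0.70, with 964, 1056 and 5600 in knockdown and 50.5 to 74.1 in control libraries. Nkd2, a feedback inhibitor of the pathway, rose by 1.41 ± 0.19. Dkk3 and the receptor gene Tnfrsf19 fell, with log2 changes of -4.28 ± 0.32 and -5.06 ± 0.58. Without the third knockdown library 7 were higher and 5 lower (38.6% and 39.9% of all genes).

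Other matricellular proteins were higher in 9 of 15 and lower in 3 (21.7% and 23.5% of all genes), with a median of 1.45. Tnxb, a tenascin of connective tissue, rose to 8903, 8338 and 2769 in knockdown libraries 1 to 3, against 5.45, 8.84 and 2.85 in control libraries 1 to 3 (log2 change 9.88 ± 0.56). Ecm1, an extracellular matrix glycoprotein, rose by 2.59 ± 0.11. The calcium-binding Smoc2 fell by 4.60 ± 0.30. Thbs2, a thrombospondin, had a log2 change of -1.70 ± 0.40 (adjusted p = 0.016, and 0.059 to 0.062 with any 1 control library left out). Without the third knockdown library 10 were higher and 5 lower (38.6% and 39.9% of all genes).

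The proteins that share the N-terminal module of the CCN family were higher in 4 of 9 and lower in 3 (21.7% and 23.5% of all genes), with a median of 0.41. Igfbp3, which carries insulin-like growth factors in the circulation, rose to 60737, 60046 and 42759.7 in knockdown libraries 1 to 3, against 28.3, 41.7 and 26.6 in control libraries 1 to 3 (log2 change 10.69 ± 0.23). Igfbp5, which is known to be made by differentiating myoblasts, fell to 436, 390 and 349 in knockdown libraries 1 to 3, against 138539, 156574 and 125479 in control libraries 1 to 3 (log2 change -8.48 ± 0.15). Igfbp4 fell by 1.60 ± 0.11, whereas Crim1, also in this list, was higher. Nov and Igfbp3 were thus both high in the knockdown, and each had its lowest knockdown value in the third library. Without the third knockdown library 6 of these genes were higher and 3 lower (38.6% and 39.9% of all genes).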

How the data were processed

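Groups and replicate numbers came from the sample titles. The submitters' processing notes name GRCm38, DESeq2, Trimmomatic 0.36 and, from Subread 1.5.2, featureCounts. The sources used here give no aligner, strand setting or annotation release. The deposited signal is a gene count divided by 1 size factor per library. Within a tolerance of 0.01 reads, 100% of values came out as whole reads, so counts were recovered. The deposited table also holds the authors' log2 fold changes and p-values. Exonic lengths and positions are from GENCODE M21 (16812 of 16854 identifiers matched).

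limma 3.58.1 (R 4.3.3) with a mean-variance trend was fitted to log2(value + 1), two-sided, for genes with at least 10 in at least 3 libraries (16245), with no block; fold changes on this scale understate those of low genes. edgeR 4.0.16 and DESeq2 1.42.0 were run on recovered counts. The procedure was also run on simulated counts with the same spread in every library. That cannot give its error rates here, where the third knockdown library stood apart. The 5 members, the related gene lists and the cell type marker lists were chosen with earlier results of these data known. Counts of members are therefore descriptions. Genes named were the members, Adamtsl2, Tead1 to Tead4, Yap1, Wwtr1, defining cell type markers, up to 2 genes per direction of each list with the largest change (past the threshold, no overlap, mean of at least 100), and the 3 nearest profiles of each member (2 genes that the rule names are not reported here); Gm and Rik names were left out of the profile search. Chromosomal neighbours and integrins were added after seeing the members' values, and Col3a1 after its own values were seen. The floor of 3 reads covers counting error alone.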

Additional observations from a re-analysis of the deposited data

How the results depend on the processing

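Nov, Wisp2, Ctgf and Wisp1 kept their direction and call under all 17 alternatives, with log2 changes of 8.73 to 9.01, 3.43 to 3.64, 0.54 to 0.74 and -1.45 to -1.29. The alternatives were an adjusted p of 0.01, each library left out, the replicate block, edgeR, DESeq2, limma with no trend, scaling by upper quartile or TMM, a pseudocount of 5 or 0.5, and a filter at 50 or none. Cyr61 passed at 0.42 with upper quartile scaling and at 0.42 without the third knockdown library (range 0.22 to 0.42 over the libraries left out); the cause was not tested. Over the libraries left out, 3 to 4 members were higher and 1 was lower. Upper quartile scaling moved the median log2 change of all genes by 0.12 and edgeR by 0.11.

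Over all genes, 3519 were higher and 3823 lower; with a library left out the counts were 2443 to 6269 higher and 2648 to 6485 lower, highest without the third knockdown library. At an adjusted p of 0.01 they were 2283 and 2545. edgeR called 7344 genes and DESeq2 8461. With a library left out, calls in either direction were 2 to 17 for YAP and TAZ readouts (2 at an adjusted p of 0.01). TEAD and Hippo genes had 7 to 14, and the list for serum response factor 6 to 15. Each count was highest without the third knockdown library. Yap1, which did not pass with all libraries, ranged from -0.27 to 0.23 with a library left out, and was at 0.23 without the third knockdown library (adjusted p = 0.0096), against -0.10 with it; the cause was not tested.

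Same-numbered knockdown and control libraries deviated from their group means with correlations of 0.02, 0.10 and 0.14 across genes. Some libraries, but not every library, correlated best with their own number. These correlations cannot decide whether same-numbered libraries shared a batch, because the knockdown mean includes the library that stood apart. With the replicate block 3010 genes were higher and 3301 lower, and the log2 changes of the members were 8.83, 3.53, 0.62, -1.40 and 0.30 for Nov, Wisp2, Ctgf, Wisp1 and Cyr61. No pair of replicates matched within sampling noise (chi-square per gene of 3.88 for knockdown libraries 1 and 2, and of 6.86 to 15.9 among controls). For knockdown library 3 it was 799 against library 1 and 752 against library 2.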
